A study of Homo sapiens with 9 samples.

Results

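The 10 genes described here encode parts of the leucine-sensing arm of mTOR complex 1 (mTORC1) and its regulators: MTOR and RPTOR, the Rag GTPases RRAGC and RRAGD, the sestrins SESN1, SESN2 and SESN3, the inhibitors DEPTOR and DDIT4, and the substrate EIF4EBP1. They were chosen by name from 19775 genes measured by array, and all 10 had a probe set of their own symbol. A gene with several such probe sets was read from the brightest of them, averaged across the 9 arrays. All 10 passed the filter on low signal, a mean log2 signal of 5.77 or more, and their group means lay at 7.64 or above.

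The cells were Daudi, a B-cell line of Burkitt lymphoma, which carries a translocation that joins MYC to an immunoglobulin locus. They had been infected with a short hairpin RNA against SLC7A5 (Slc7a5-sh), which encodes the light chain of a transporter of leucine and other large neutral amino acids, with one against the transcription factor MYC (C-Myc-sh), or with a control hairpin (Ctrl-sh). All 3 groups, of 3 arrays each, had been selected with puromycin for 48 h. The replicates are labelled biological, but whether each had its own infection is not stated, and p-values then measure only the spread between these samples, which may be technical. C-Myc-sh was the study's positive control.

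mTORC1 is a lysosome-bound kinase complex that drives protein synthesis and restrains autophagy when amino acids and growth factors are plentiful. Amino acids act through Rag GTPases, heterodimers of RagA or RagB with RagC or RagD, which bring mTORC1 to the lysosomal surface. The sestrins encoded by SESN1 and SESN2 bind leucine. When leucine is short they bind GATOR2, which relieves the inhibitor GATOR1 and turns the Rag switch off.

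The median log2 signal of an array was 6.05 to 6.26. Arrays of a group correlated at 0.972 to 0.977 across genes, which are not independent replicates, and 3 arrays a group limit the precision. Of the targeted genes, SLC7A5 was lower by a log2 change of -0.32 in Slc7a5-sh (SE 0.07, limma adjusted p = 0.00414) and by -0.41 in C-Myc-sh (SE 0.07, limma adjusted p = 0.000186). MYC changed by -0.35 in Slc7a5-sh (SE 0.05, limma adjusted p = 0.000381) and by -1.09 in C-Myc-sh (SE 0.05, limma adjusted p = 4.7e-10). Both targets were thus lower in both knockdowns, and effects through SLC7A5 and through MYC cannot be told apart. All 7 measured B-cell markers and all 5 measured germinal centre markers lay above the filter, against 0 of 8 myeloid, 4 of 8 epithelial and fibroblast and 2 of 9 T and NK cell markers (CD3E and TRBC1). TRBC1 was higher by 0.65 with Slc7a5-sh and by 0.30 with C-Myc-sh, both called. The summed linear signal of the B-cell markers was 31698 to 31960 in Slc7a5-sh (4 of 7 called lower and 1 higher), 41855 to 45501 in C-Myc-sh (3 lower and 2 higher) and 38375 to 41731 in Ctrl-sh. That of the T and NK markers was 10651 to 11294 in Slc7a5-sh, 8541 to 9019 in C-Myc-sh and 6417 to 7669 in Ctrl-sh, and that of the germinal centre markers 39522 to 43189, 18402 to 19696 and 47041 to 50597 in the same groups. Their part in the results below was not tested.

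In C-Myc-sh, DEPTOR fell to 16.6% and EIF4EBP1 to 20.0% of their Ctrl-sh signal, SESN1 and DDIT4 fell less, and SESN2, RRAGC and RRAGD rose 2.21- to 2.56-fold. In Slc7a5-sh, SESN2 rose 1.59-fold and RRAGC 1.42-fold and DEPTOR fell to 67.1% of Ctrl-sh, while EIF4EBP1, SESN1 and DDIT4 did not pass the test. The order of the knockdowns was open to the choice of probe set for SESN2, whose second probe set changed by 0.99 with Slc7a5-sh and 0.86 with C-Myc-sh. Signals are bulk values, so fewer cells with a transcript and less transcript per cell cannot be told apart. They are also scaled to one target per array, so a rise or fall is relative to the other signals of the array.

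Of the 10 genes, 4 were called in Slc7a5-sh against Ctrl-sh at a limma adjusted p under 0.05, 3 higher and 1 lower, where 25.3% of all 11250 tested genes were called (14.3% higher and 11.0% lower). In C-Myc-sh against Ctrl-sh 7 were called, 3 higher and 4 lower, where 54.9% of all genes were called (28.7% higher and 26.2% lower). In C-Myc-sh against Slc7a5-sh 8 were called, 4 in each direction, where 49.5% of all genes were called (24.4% higher and 25.1% lower). These shares are 40%, 70% and 80% of 10 genes, so each lies only a few genes above the share of all tested genes. The arrays of the 2 groups did not overlap for 4, 7 and 8 of the 10 genes in these comparisons, where this held for 39.8%, 62.2% and 56.5% of all tested genes. In Slc7a5-sh against Ctrl-sh these are not all the called genes, since RRAGD was called with overlapping arrays and SESN3 lay apart without a call. The median size of the log2 change was 0.19 over the 10 genes and 0.22 over all tested genes in Slc7a5-sh against Ctrl-sh. It was 1.05 and 0.44 in C-Myc-sh against Ctrl-sh, and 0.77 and 0.38 in the direct comparison. The 2 knockdowns were compared with the same Ctrl-sh arrays, so their changes are given side by side and not as separate evidence.

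**Figure D1:**
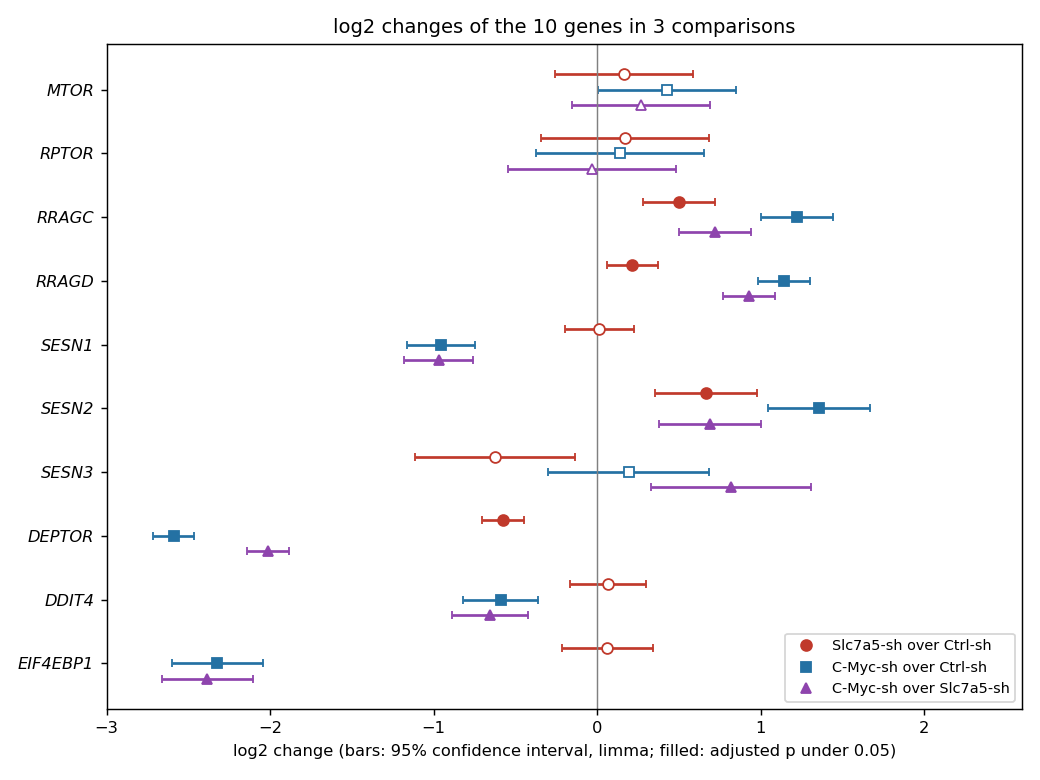
log2 change with its 95% confidence interval for each of the 10 genes in 3 comparisons (circles, Slc7a5-sh over Ctrl-sh; squares, C-Myc-sh over Ctrl-sh; triangles, C-Myc-sh over Slc7a5-sh), filled where limma's adjusted p was under 0.05. DEPTOR and EIF4EBP1 stand lowest in C-Myc-sh, at -2.59 and -2.32, and SESN2, RRAGC and RRAGD highest, at 1.35, 1.22 and 1.14.

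The subunits are described first. MTOR, the kinase of the complex, had log2 signals of 9.68, 8.83 and 9.41 on the Slc7a5-sh arrays, 9.80, 9.26 and 9.65 on the C-Myc-sh arrays, and 9.06, 9.36 and 9.01 on the Ctrl-sh arrays. The 3 groups overlapped. Its change was 0.16 in Slc7a5-sh (95% confidence interval -0.26 to 0.58, SE 0.20, limma adjusted p = 0.600). In C-Myc-sh it was 0.43 (95% confidence interval 0.0055 to 0.85, SE 0.20, limma adjusted p = 0.0810). The change in C-Myc-sh depended on single arrays. It passed without C-Myc-sh replicate 2 (0.58, limma adjusted p = 0.0305), without Slc7a5-sh replicate 2 (0.43, limma adjusted p = 0.0308) and with only the 6 arrays compared (limma adjusted p = 0.0325).

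RPTOR encodes raptor, the subunit that binds substrates and the Rag GTPases. Its log2 signals were 7.46, 7.74 and 8.23 on the Slc7a5-sh arrays, 7.96, 7.51 and 7.87 on the C-Myc-sh arrays, and 7.59, 7.62 and 7.71 on the Ctrl-sh arrays. The Ctrl-sh arrays lay close together and inside the range of both knockdowns. The changes were 0.17 in Slc7a5-sh (95% confidence interval -0.35 to 0.68; limma adjusted p = 0.657) and 0.14 in C-Myc-sh (-0.38 to 0.65; limma adjusted p = 0.657). Changes as large as these bounds remain possible.

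RRAGC, which encodes RagC, was lowest in Ctrl-sh, higher in Slc7a5-sh and highest in C-Myc-sh, and each step passed the test. The log2 signals were 10.65, 10.60 and 10.97 on the Slc7a5-sh arrays, 11.45, 11.46 and 11.47 on the C-Myc-sh arrays, and 10.06, 10.35 and 10.31 on the Ctrl-sh arrays. No array of one group reached the range of another. RRAGC changed by 0.50 in Slc7a5-sh (SE 0.10, limma adjusted p = 0.00249) and by 1.22 in C-Myc-sh (SE 0.10, limma adjusted p = 1.1e-07). C-Myc-sh exceeded Slc7a5-sh by 0.72 (SE 0.10, limma adjusted p = 3.5e-05). A second RRAGC probe set above the filter gave changes of 0.36 and 1.31 in the 2 knockdowns, both called. With the mean of all 3 RRAGC probe sets, of which 1 lay below the filter, the change in Slc7a5-sh (0.61, limma adjusted p = 0.0561) and the direct difference (0.37, limma adjusted p = 0.164) no longer passed.

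RRAGD, which encodes RagD, rose in C-Myc-sh, while its small called change in Slc7a5-sh depended on the setting and the probe set. Its log2 signals were 11.39, 11.33 and 11.15 on the Slc7a5-sh arrays, 12.23, 12.18 and 12.24 on the C-Myc-sh arrays, and 11.00, 11.17 and 11.06 on the Ctrl-sh arrays. The C-Myc-sh arrays stood about 1 log2 unit above all others, while Slc7a5-sh and Ctrl-sh overlapped. The change in C-Myc-sh was 1.14 over Ctrl-sh (SE 0.07, limma adjusted p = 6.5e-09) and 0.93 over Slc7a5-sh (SE 0.07, limma adjusted p = 8.8e-08). In Slc7a5-sh it was 0.21 (SE 0.07, limma adjusted p = 0.0446), a call that held in 4 of 18 alternatives, was lost with the same sign in 13 and was lost with the opposite sign in 1. Among the 13 were the leave-outs of Ctrl-sh replicates 1 (0.17) and 3 (0.21), Slc7a5-sh replicates 1 (0.16) and 2 (0.19) and each C-Myc-sh array (0.21), with adjusted p-values of 0.0570 to 0.164 in limma. The other RRAGD probe set had the opposite sign in Slc7a5-sh, -0.15 (SE 0.07, limma adjusted p = 0.146), and a smaller rise of 0.67 in C-Myc-sh (limma adjusted p = 1.2e-06). On that probe set every Slc7a5-sh array lay below every Ctrl-sh array. In the fit over 27307 probe sets that gave these values, the first RRAGD probe set was not called in Slc7a5-sh either (limma adjusted p = 0.0636).

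**Figure D2:**
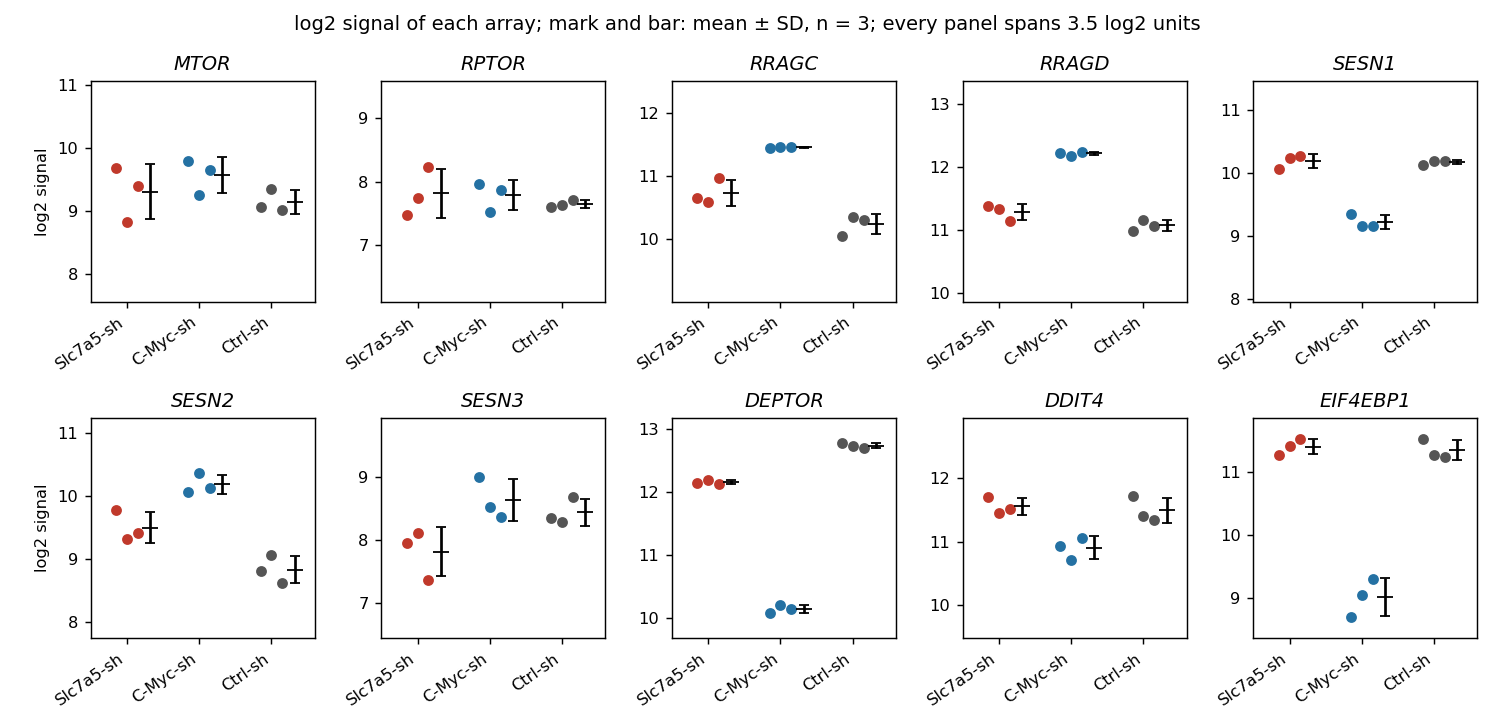
log2 signal of every array for the 10 genes, by group (Slc7a5-sh, C-Myc-sh, Ctrl-sh), with the mean and SD of 3 arrays beside the points, and panels of equal height. RRAGC, SESN2 and DEPTOR separate all 3 groups, RRAGD, SESN1, DDIT4 and EIF4EBP1 set C-Myc-sh apart from the other groups, and MTOR and RPTOR overlap throughout.

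RRAGC and SESN2 were the genes that rose in both knockdowns on both of their probe sets above the filter, and their promoter windows are shown for that reason. RefSeq windows, of 250 bases before to 50 bases after the start of a gene, matched 7 of the 10 genes by symbol, in 9 windows, and DEPTOR, EIF4EBP1 and RRAGD had no entry. They were searched on both strands for CACGTG, the E-box that MYC and the lysosomal factors TFEB and TFE3 can bind, for TGATGNAA, a composite element of C/EBP and ATF factors, and for GTAAACA, a forkhead element. Of all 35116 windows, 7.26%, 3.62% and 3.42% held these motifs. The RRAGC window (GRCh38.p14, chr1:38859723-38860022, minus strand) and the SESN2 window (GRCh38.p14, chr1:28259268-28259567, plus strand) read as follows, 5′ to 3′ on the strand of the gene, with motif matches in capitals.
RRAGC: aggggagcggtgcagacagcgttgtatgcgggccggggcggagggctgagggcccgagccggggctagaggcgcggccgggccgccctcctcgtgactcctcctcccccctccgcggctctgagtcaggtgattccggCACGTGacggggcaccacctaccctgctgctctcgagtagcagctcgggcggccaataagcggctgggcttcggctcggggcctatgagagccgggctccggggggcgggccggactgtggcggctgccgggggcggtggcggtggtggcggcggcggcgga
SESN2: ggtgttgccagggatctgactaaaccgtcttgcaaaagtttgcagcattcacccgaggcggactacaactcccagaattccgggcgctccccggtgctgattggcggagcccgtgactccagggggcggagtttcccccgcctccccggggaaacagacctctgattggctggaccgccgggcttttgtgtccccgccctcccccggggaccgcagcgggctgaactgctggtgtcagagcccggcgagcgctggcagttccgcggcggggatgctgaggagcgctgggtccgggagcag
The single match in the 9 windows was the E-box of RRAGC, whose first base lies at -112 from the start of the gene. A match is a description of these letters and says nothing on binding, and the SESN2 window held none of the 3 motifs.

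SESN2, the sestrin best known as a leucine sensor and a target of ATF4 and p53, rose in both knockdowns. Its log2 signals were 9.77, 9.31 and 9.41 on the Slc7a5-sh arrays, 10.06, 10.36 and 10.13 on the C-Myc-sh arrays, and 8.81, 9.05 and 8.62 on the Ctrl-sh arrays. The groups did not overlap. SESN2 changed by 0.67 in Slc7a5-sh (SE 0.15, limma adjusted p = 0.00388) and by 1.35 in C-Myc-sh (SE 0.15, limma adjusted p = 1.5e-06). The second SESN2 probe set rose by 0.99 in Slc7a5-sh (SE 0.12, limma adjusted p = 0.000116) and by 0.86 in C-Myc-sh (SE 0.12, limma adjusted p = 4.7e-05). Both are of kinds (_s_at or _x_at) that can bind related transcripts, and they disagreed on which knockdown was higher. C-Myc-sh over Slc7a5-sh was 0.69 by the first (SE 0.15, limma adjusted p = 0.00115) and -0.12 by the second (SE 0.12, limma adjusted p = 0.471). Values of the second come from a separate fit over probe sets.

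SESN1, a sestrin induced by p53 and FOXO factors that also binds leucine, fell in C-Myc-sh against both other groups. The log2 signals were 10.06, 10.24 and 10.27 on the Slc7a5-sh arrays, 9.35, 9.16 and 9.16 on the C-Myc-sh arrays, and 10.13, 10.20 and 10.20 on the Ctrl-sh arrays. Slc7a5-sh and Ctrl-sh overlapped and C-Myc-sh lay below both. SESN1 changed by -0.96 in C-Myc-sh over Ctrl-sh (SE 0.10, limma adjusted p = 9.5e-07) and by -0.97 over Slc7a5-sh (SE 0.10, limma adjusted p = 1.2e-06). In Slc7a5-sh the change was 0.01 (95% confidence interval -0.20 to 0.22; limma adjusted p = 0.944). SESN1 and SESN2 thus moved in opposite directions in C-Myc-sh.

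SESN3, a sestrin known as a FOXO target, spread more widely within both knockdowns than SESN1 and SESN2 did. Its log2 signals were 7.96, 8.11 and 7.37 on the Slc7a5-sh arrays, 9.01, 8.52 and 8.37 on the C-Myc-sh arrays, and 8.36, 8.28 and 8.68 on the Ctrl-sh arrays. The Slc7a5-sh arrays lay below all others, while C-Myc-sh and Ctrl-sh overlapped. The change of SESN3 in Slc7a5-sh was -0.63 (SE 0.23; 95% confidence interval -1.12 to -0.14) and missed the threshold (limma adjusted p = 0.0591). It passed without Slc7a5-sh replicate 2 (-0.78, limma adjusted p = 0.0394). In C-Myc-sh the change was 0.19 (SE 0.23, limma adjusted p = 0.508). C-Myc-sh exceeded Slc7a5-sh by 0.82 (SE 0.23, limma adjusted p = 0.00800), a call lost without C-Myc-sh replicate 1 (0.63, limma adjusted p just above 0.05) and with the next SESN3 probe set (0.62, SE 0.51, limma adjusted p = 0.376). Of the 7 SESN3 probe sets, 2 lay above the filter.

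**Figure D3:**
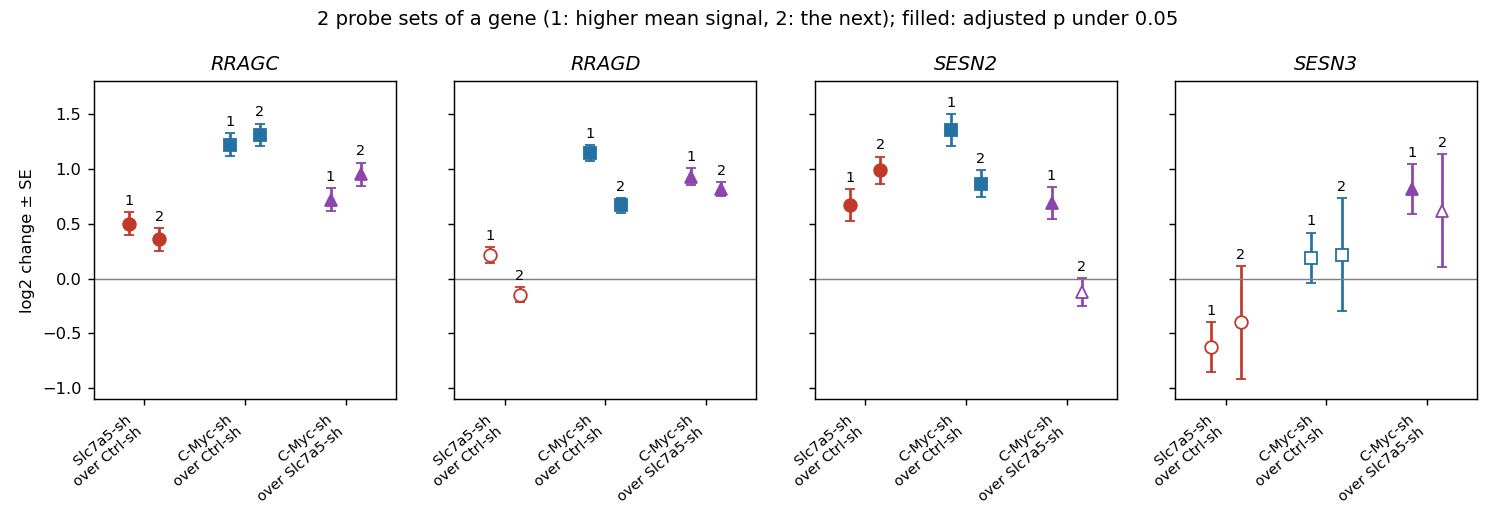
log2 change with its SE for the 2 probe sets above the filter of RRAGC, RRAGD, SESN2 and SESN3 (1, the one with the higher mean signal; 2, the next), in 3 comparisons and from a fit over 27307 probe sets, filled where the adjusted p was under 0.05. The RRAGC pair runs together, while the RRAGD pair differs in sign in Slc7a5-sh over Ctrl-sh, at 0.21 and -0.15, and the SESN2 pair in C-Myc-sh over Slc7a5-sh, at 0.69 and -0.12.

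Of the inhibitors, DEPTOR, which binds mTOR and restrains both of its complexes, fell in both knockdowns and further in C-Myc-sh. Its log2 signals were 12.15, 12.19 and 12.13 on the Slc7a5-sh arrays, 10.09, 10.21 and 10.14 on the C-Myc-sh arrays, and 12.77, 12.73 and 12.70 on the Ctrl-sh arrays. The groups were far apart for their spread, with SDs of 0.03 to 0.06. DEPTOR changed by -0.58 in Slc7a5-sh (SE 0.06, limma adjusted p = 1.5e-05) and by -2.59 in C-Myc-sh (SE 0.06, limma adjusted p = 3.9e-13). The difference between the knockdowns was -2.02 (SE 0.06, limma adjusted p = 5.7e-12). Among 11250 tested genes the change of DEPTOR in C-Myc-sh over Ctrl-sh stood at rank 31 from the lowest, and that of EIF4EBP1 at rank 50. The other DEPTOR probe set averaged 4.87, below the filter, and with the mean of both the change was -0.36 in Slc7a5-sh (limma adjusted p = 0.497) and -1.72 in C-Myc-sh, where it was still called.

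DDIT4, also called REDD1, is a stress-induced inhibitor that acts through the TSC complex. The log2 signals were 11.70, 11.45 and 11.52 on the Slc7a5-sh arrays, 10.94, 10.71 and 11.06 on the C-Myc-sh arrays, and 11.72, 11.41 and 11.35 on the Ctrl-sh arrays. C-Myc-sh lay below the other groups, which overlapped. DDIT4 changed by -0.59 in C-Myc-sh over Ctrl-sh (SE 0.11, limma adjusted p = 0.000277) and by -0.66 over Slc7a5-sh (SE 0.11, limma adjusted p = 0.000135). Its change in Slc7a5-sh was 0.06 (95% confidence interval -0.17 to 0.30; limma adjusted p = 0.715). DDIT4 and SESN2, both known as ATF4 targets, thus differed in sign in C-Myc-sh.

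EIF4EBP1 encodes 4E-BP1, which binds the cap-binding protein eIF4E and blocks translation until mTORC1 phosphorylates it. The log2 signals were 11.27, 11.41 and 11.51 on the Slc7a5-sh arrays, 8.69, 9.05 and 9.30 on the C-Myc-sh arrays, and 11.52, 11.27 and 11.23 on the Ctrl-sh arrays. All 3 C-Myc-sh arrays lay well below the other 6. EIF4EBP1 changed by -2.32 in C-Myc-sh over Ctrl-sh (SE 0.13, limma adjusted p = 1.6e-09) and by -2.38 over Slc7a5-sh (SE 0.13, limma adjusted p = 2.1e-09). In Slc7a5-sh over Ctrl-sh the change was 0.06 (95% confidence interval -0.22 to 0.34; limma adjusted p = 0.773). An array reads transcript and not the phosphorylation of the protein.

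The other genes of the pathway were taken from 9 lists, chosen with earlier results of these data known. Counts are set beside the share called among all tested genes, 25.3% for Slc7a5-sh and 54.9% for C-Myc-sh, each over Ctrl-sh. Of the partners and assembly factors of the mTOR complexes, 7 of 9 were tested, with 1 higher and 0 lower in Slc7a5-sh (14.3%, against 25.3% of all tested genes) and 1 higher and 2 lower in C-Myc-sh (42.9%, against 54.9%). The gene that rose in both was RICTOR, the defining subunit of mTORC2, by 0.58 with Slc7a5-sh and 1.38 with C-Myc-sh (SE 0.07 each; limma adjusted p = 7.4e-05 and 1.0e-09). MLST8, shared by both complexes, fell by 0.76 on the log2 scale in C-Myc-sh (SE 0.13, limma adjusted p = 0.00015).

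Genes of the Rag, Ragulator and lysosomal scaffold list, without RRAGC and RRAGD, had 2 of 11 tested members higher and 0 lower in Slc7a5-sh (18.2%, against 25.3% of all tested genes), with a median log2 change of 0.05 against 0.03 over all tested genes. In C-Myc-sh 4 were higher and 1 lower (45.5%, against 54.9%), with a median of 0.48 against 0.04, and the count fell to 3 without Ctrl-sh replicate 3 or without C-Myc-sh replicate 2. LAMTOR3, a Ragulator subunit, changed by 0.27 with Slc7a5-sh and 0.58 with C-Myc-sh, and FNIP2, a partner of folliculin, by 0.24 and 0.69. RRAGA, whose product pairs with RagC or RagD, moved against them. It changed by -0.83 in C-Myc-sh over Ctrl-sh (SE 0.08, limma adjusted p = 4.0e-07) and by -0.67 over Slc7a5-sh (SE 0.08, limma adjusted p = 5.6e-06), while its change in Slc7a5-sh was -0.17 (limma adjusted p = 0.142). RRAGB, the close relative of RRAGA, was higher in C-Myc-sh than in Slc7a5-sh by 0.99 (SE 0.29, limma adjusted p = 0.0113), a call lost without C-Myc-sh replicate 3 (0.84, limma adjusted p = 0.0582).

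The GATOR, KICSTOR and amino acid sensor list had 1 of 16 tested members higher and 2 lower in Slc7a5-sh (18.8%, against 25.3% of all tested genes), and 5 called in all without Slc7a5-sh replicate 2. In C-Myc-sh 3 were higher and 7 lower (62.5%, against 54.9%), with a median of -0.27 against 0.04 over all tested genes. SEH1L, a GATOR2 subunit that also serves the nuclear pore, changed by -0.41 in Slc7a5-sh (SE 0.05, limma adjusted p = 5.4e-05) and by -0.999 in C-Myc-sh (SE 0.05, limma adjusted p = 4.5e-10). SAMTOR, a sensor of S-adenosylmethionine, rose by 1.05 in C-Myc-sh, KPTN of KICSTOR by 0.97 and WDR59 of GATOR2 by 0.88. GATOR2 genes thus moved both ways in C-Myc-sh.

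In the TSC and RHEB arm, which carries growth factor and energy signals, 5 of 15 tested genes were higher and 1 lower in Slc7a5-sh (40%, against 25.3% of all tested genes), with a median of 0.18 against 0.03. In C-Myc-sh 7 were higher and 2 lower (60%, against 54.9%), with a median of 0.25 against 0.04. PRKAG1, a subunit of AMP-activated kinase, changed by 0.73 with Slc7a5-sh and 0.84 with C-Myc-sh, and the kinase gene AKT1 by -0.50 and -0.44. PIK3CD, the phosphoinositide 3-kinase catalytic subunit of leukocytes, rose by 2.17 in C-Myc-sh (SE 0.08, limma adjusted p = 1.5e-11). Of 18 tested substrates and effectors of mTORC1, 3 were higher and 1 lower in Slc7a5-sh (22.2%, against 25.3% of all tested genes). That total was 2 without any 1 of Ctrl-sh replicates 1, 2 and 3 and 8 with a filter at the 75th percentile. LPIN1, a phosphatidate phosphatase held out of the nucleus by mTORC1, rose by 1.42 (SE 0.15, limma adjusted p = 1.8e-05).

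In C-Myc-sh 5 of the 18 substrates and effectors were higher and 6 lower (61.1%, against 54.9% of all tested genes). TFEB and TFE3, lysosomal transcription factors that mTORC1 keeps in the cytosol, rose by 1.26 (SE 0.08, limma adjusted p = 3.1e-09) and 1.37 (SE 0.12, limma adjusted p = 2.6e-07). EIF4E, the partner of 4E-BP1, fell by 0.75 on the log2 scale (SE 0.06, limma adjusted p = 4.4e-08), the scaffold EIF4G1 by 0.63 and LARP1, a repressor of ribosomal protein mRNAs, by 0.67. EIF4E therefore fell less than EIF4EBP1, whose change was -2.32.

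**Figure D4:**
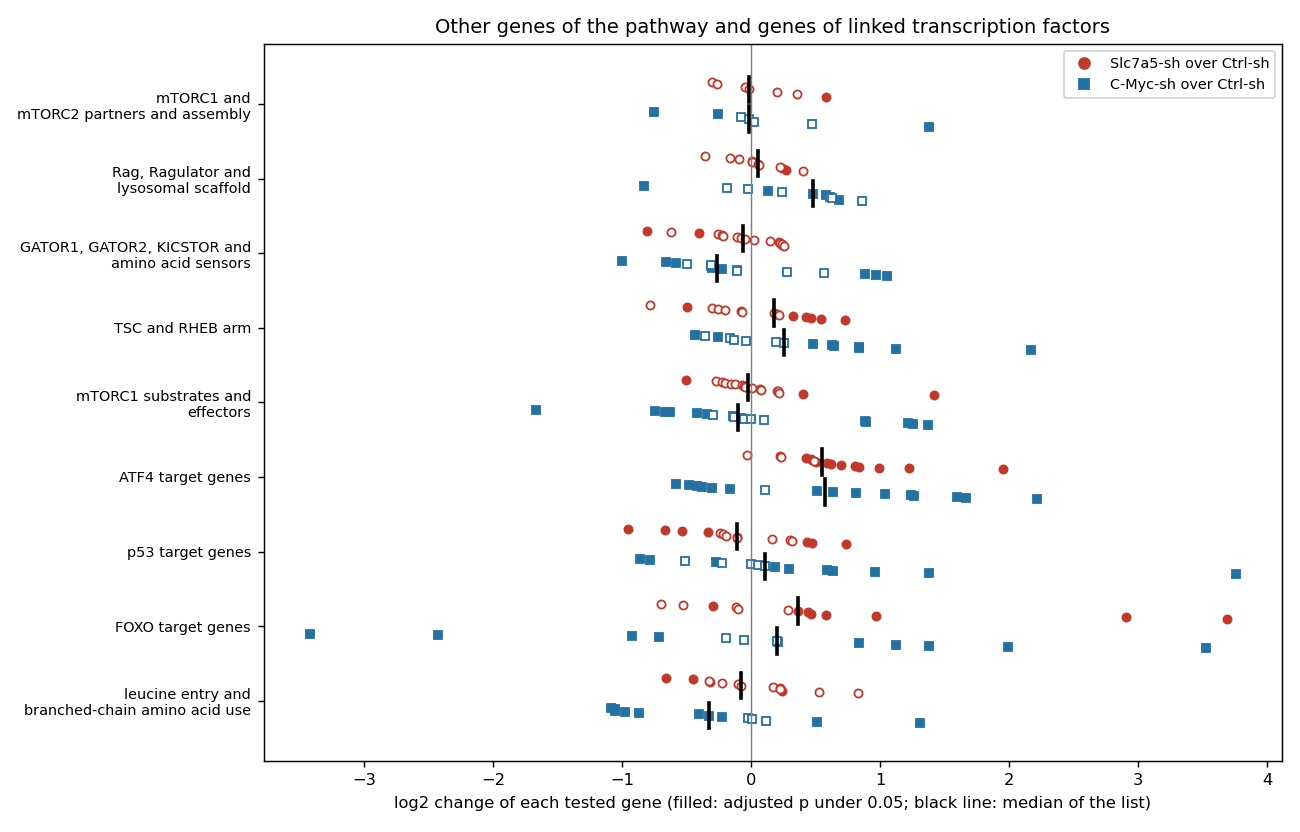
log2 change over Ctrl-sh of each tested gene in 9 lists, in Slc7a5-sh (circles, above) and C-Myc-sh (squares, below), filled where limma's adjusted p was under 0.05, with a black line at the median of the list. ATF4 targets lie to the right in Slc7a5-sh, with a median of 0.55. In C-Myc-sh they spread to both sides, with a median of 0.57.

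Several of the 10 genes are known targets of ATF4, p53 or FOXO factors, so genes of those factors were set beside them. ATF4 target genes had 12 of 16 tested members higher and 0 lower in Slc7a5-sh (75%, against 25.3% of all tested genes), with a median of 0.55 against 0.03. In C-Myc-sh 9 were higher and 6 lower (93.8%, against 54.9%), with a median of 0.57 against 0.04. The cystine importer SLC7A11 (1.95), the transporter SLC38A2 (0.69) and the serine synthesis enzyme PSAT1 (0.59) had the smallest p-values in Slc7a5-sh, while the stress factor DDIT3 rose by 1.66 in C-Myc-sh. SLC7A11 and SLC38A2 also rose in C-Myc-sh, by 2.22 and 1.24, as SESN2 did. PHGDH, an enzyme of serine synthesis (-0.58), MTHFD2, an enzyme of mitochondrial folate metabolism (-0.42), and ASNS, asparagine synthetase (-0.31), fell there. PSAT1 changed by -0.16 (limma adjusted p = 0.0125). With quantile normalization PSAT1 stood at 0.02 and ASNS at -0.11, both uncalled, and the call of PSAT1 was also lost without Ctrl-sh replicate 1 (-0.13) or C-Myc-sh replicate 2 (-0.13). The call of ASNS was also lost with the mean of all probe sets (-0.28) and without _s_at and _x_at probe sets (-0.25). SESN2 thus moved with some ATF4 target genes in C-Myc-sh and against others.

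Of 15 tested p53 target genes, 3 were higher and 4 lower in Slc7a5-sh (46.7%, against 25.3% of all tested genes). In C-Myc-sh 7 were higher and 3 lower (66.7%, against 54.9%). The death receptor gene FAS rose by 3.76 in C-Myc-sh, or by 1.81 without _s_at and _x_at probe sets (limma adjusted p = 0.0567). TNFRSF10B, another death receptor gene, rose by 1.38, but the mean of all its probe sets changed by -0.09 (limma adjusted p = 0.852). The cell cycle inhibitor CDKN1A changed by 0.74 with Slc7a5-sh and 0.64 with C-Myc-sh, and MDM2, which degrades p53, by -0.54 and -0.79. ZMAT3 fell in Slc7a5-sh (-0.96) and rose in C-Myc-sh (0.59), where SESN1 fell. Among FOXO target genes 7 of 13 were higher and 1 lower in Slc7a5-sh (61.5%, against 25.3% of all tested genes), and 6 were higher and 4 lower in C-Myc-sh (76.9%, against 54.9%). CDKN1B changed by 0.97 with Slc7a5-sh and 1.99 with C-Myc-sh, and TXNIP, also listed in the TSC arm, by 0.46 and 1.13. DEPP1 had a mean log2 signal of 8.93 in Slc7a5-sh, against 5.24 (SD 1.26) in Ctrl-sh, which is below the filter level, so it was tested through the groups where it is high. With low values raised to that level its change was 2.86 with Slc7a5-sh and 2.69 with C-Myc-sh. The cytokine receptor gene IL7R fell by 3.42 on the log2 scale in C-Myc-sh, to a mean of 5.95, close to the filter level. RAG2 fell by 2.43 on the log2 scale in C-Myc-sh, to a mean of 5.54, below that level. The counts of FOXO target genes include DEPP1, IL7R and RAG2.

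Genes of leucine entry and branched-chain amino acid use, which include SLC7A5, had 1 of 13 tested members higher and 3 lower in Slc7a5-sh (30.8%, against 25.3% of all tested genes), and 2 higher and 8 lower in C-Myc-sh (76.9%, against 54.9%). BCAT1, the cytosolic branched-chain aminotransferase, changed by -1.05 in C-Myc-sh (SE 0.05, limma adjusted p = 1.3e-10), and SLC43A1, another transporter of large neutral amino acids, by -0.87. The 2 higher genes were SLC3A2, by 0.51 (SE 0.09, limma adjusted p = 0.00016), and SLC7A8, by 1.31 (SE 0.37, limma adjusted p = 0.0079). SLC7A8 had a Ctrl-sh mean of 5.80, close to the filter level. Averaged over every probe set of a gene, the changes of LAMTOR3 (0.10), FNIP2 (0.02), MDM2 (-0.48) and ZMAT3 (-0.26) in Slc7a5-sh and of TFE3 (0.80) in C-Myc-sh no longer passed.

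The genes whose profiles were most like those of the 3 called members with the widest range of group means were found by the root mean square difference over the 9 arrays, each gene taken relative to its own Ctrl-sh mean. Nearest to DEPTOR were PEG10, SUSD3, PPP1R14B and S100A4, with differences of 0.10 to 0.20 on the log2 scale. PEG10 changed by -0.48 with Slc7a5-sh and by -2.61 with C-Myc-sh, against -0.58 and -2.59 for DEPTOR. Nearest to EIF4EBP1 were CMSS1, ANKLE1, LYAR and SRM (0.18 to 0.26), and CMSS1 changed by 0.06 with Slc7a5-sh and by -2.28 with C-Myc-sh. Nearest to SESN2 were ZNF605, DENND2C, TOGARAM1 and IDI1 (0.14 to 0.17), and TOGARAM1 changed by 0.55 and 1.36. These neighbours are those of the first SESN2 probe set. The second changed by 0.99 with Slc7a5-sh and 0.86 with C-Myc-sh, and its neighbours were not sought.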

How the data were processed

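RNA from Daudi cells was labelled with biotin by a 3′-primed method, per the labels' protocols, and hybridised to 9 arrays, 3 each of Slc7a5-sh, C-Myc-sh and Ctrl-sh, grouped by sample title. The values the authors deposited are log2 signals of 54613 probe sets, already scaled. Per the submitters' processing notes the tool was MAS5, without a version. No label states the log base, and base 2 was inferred: on the linear scale the mean with 2% trimmed at each end was 497 on every array. No further normalization was applied.

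Platform annotation gave 41091 of 54613 probe sets 1 gene symbol, 1801 several and 11721 none, and only the first were used. The highest-mean probe set stood for each of 19775 genes. Genes were tested where that mean reached 5.77, the median over probe sets, which left 11250. limma 3.58.1 (R 4.3.3) fitted 3 group means over 9 arrays, with eBayes trend, two-sided, with Benjamini-Hochberg adjustment across the tested genes of each comparison. Values of a second probe set of a gene came from the same model fitted to the 27307 probe sets at or above that level, with adjustment across them. The fit was also run on simulated data, but the outcome of that run is not reported here. The study's SLC7A5 and MYC, all 10 members, the leading called genes of each list and the nearest profiles are the genes named, and of the leading genes some are printed. Members, lists and tests were chosen with earlier results of these data known. SAMTOR was matched through an older symbol.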

Additional observations from a re-analysis of the deposited data

How the results depend on the processing

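Of the 19 changes called among the 10 genes in 3 comparisons, 13 kept their call and direction in every alternative that gave a value. The alternatives were quantile normalization, no filter, a filter at the 75th percentile (which left out RPTOR and SESN3), the mean of all probe sets (without SESN3), leaving out _s_at and _x_at probe sets (without RRAGD, SESN1, SESN2 and DDIT4), eBayes without trend, only the 6 arrays compared, raising low values to the filter level, the replicate number as a block, leaving out each array, and, chosen after seeing the data, the next probe set of a gene. Over all of them, 152 of 177 values of the 10 genes in Slc7a5-sh over Ctrl-sh, 173 of 177 in C-Myc-sh over Ctrl-sh and 171 of 177 in C-Myc-sh over Slc7a5-sh kept their direction and side of the threshold. The exceptions among called changes were RRAGD, RRAGC and DEPTOR in Slc7a5-sh over Ctrl-sh and RRAGC, SESN2 and SESN3 in the direct comparison, with the values given above, and their cause was not tested.

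The number of the 10 genes called was 1 in place of 4 in Slc7a5-sh over Ctrl-sh with the mean of all probe sets, where 1581 in place of 2843 genes were called in all. Without _s_at and _x_at probe sets it was 2, 3 and 4 in place of 4, 7 and 8 in Slc7a5-sh over Ctrl-sh, C-Myc-sh over Ctrl-sh and C-Myc-sh over Slc7a5-sh, since only 6 of the 10 genes could be tested. Leaving out single arrays gave 3 to 4, 7 to 8 and 7 to 8 called members, and 2246 to 2811, 5695 to 6296 and 5005 to 5524 called genes.

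Sign changes among the 10 genes concerned small changes that were not called, apart from RRAGD (-0.15) and SESN2 (-0.12) with the next probe set. Quantile normalization turned SESN1 in Slc7a5-sh (-0.0052) and RPTOR in C-Myc-sh (-0.0433). Leaving out single arrays gave ranges over Slc7a5-sh against Ctrl-sh of -0.0272 to 0.40 for MTOR, -0.0399 to 0.34 for RPTOR, -0.0271 to 0.0764 for SESN1 and -0.0093 to 0.18 for DDIT4, and of -0.20 to 0.18 for RPTOR in the direct comparison. With the mean of all probe sets ZNF605 (-0.60), DENND2C (-0.10) and LYAR (-0.00096) turned in Slc7a5-sh, as did IDI1 (-0.25) without _s_at and _x_at probe sets. In C-Myc-sh over Ctrl-sh, TNFRSF10B (-0.0935) turned with the mean of all probe sets and PSAT1 (0.0228) with quantile normalization. In Slc7a5-sh over Ctrl-sh, LYAR lay between -0.0049 and 0.0398 when single arrays were left out.

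Same-numbered arrays of different groups did not deviate together (correlations of -0.02 to 0.02 across genes, 0 of 9 above 0.1). With 3 arrays a group, these correlations cannot tell whether same-numbered samples were infected or processed together. With the replicate block RRAGD in Slc7a5-sh was at 0.21 (limma adjusted p = 0.0558), and no other call among the 10 genes changed.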
